A study of Sus scrofa with 29 samples.

Results

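The comparison set the brachial artery against the internal mammary artery in sedentary pigs, with both arteries taken from the same animals. Its members are the 14 arrays of the 7 sedentary pigs (10_2, 11_1, 11_4, 12_3, 13_2, 15_1 and 17_1), of 29 arrays from 15 pigs in all, chosen by the artery, the activity group and the pig identifier in the sample titles. All 23999 probe sets that are not array controls were compared. Sedentary pigs were kept in their enclosures without exercise. The 7 exercised pigs with both arteries, used beside them, had run on a treadmill for 16 to 20 weeks and were sampled about 24 h after the last bout. No strain, sex, age or allele is given in the labels used here. After death both arteries were rinsed, kept in a stabilising solution, cleaned of adventitia and opened, and the lumen was scraped in a lysis reagent, so each sample is an endothelium-enriched scrape of 1 artery of 1 pig and not a purified cell population. Copying for the 1-colour porcine oligonucleotide arrays started at the poly(A) tail. Values are log2 intensities per probe set, differences are brachial minus internal mammary within a pig, and ± marks the standard error of such a mean difference over 7 pigs unless an SD is named.

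The brachial artery is a muscular conduit artery of the forelimb. The internal mammary artery runs along the inner chest wall, is rich in elastic fibres, and is the preferred graft in coronary bypass surgery because it seldom develops atherosclerosis. Endothelial cells line both, sense flow, release vasodilators such as nitric oxide and vasoconstrictors such as endothelin, and keep traces of the body region they arose in through genes such as the HOX factors. A luminal scrape can also take up smooth muscle from beneath, fibroblasts, blood cells and nerve.

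The defining endothelial genes PECAM1, CDH5 and NOS3 were bright on all 14 arrays. PECAM1, an adhesion protein of endothelial junctions, lay between 13.78 and 14.10 in the brachial and between 13.56 and 14.15 in the internal mammary arrays, and its difference was -0.05 ± 0.09 (adjusted p = 0.689). The junction cadherin CDH5 differed by 0.02 ± 0.14 (adjusted p = 0.947), from 11.89 to 12.73 over the 14 arrays. Nitric oxide synthase NOS3 differed by -0.01 ± 0.11 (adjusted p = 0.952). Dimmer second probe sets gave -0.56 ± 0.21 for CDH5 (adjusted p = 0.0752, higher in the brachial artery in 1 of 7 pigs) and -0.26 ± 0.12 for PECAM1 (adjusted p = 0.138). The mean over 14 measured endothelial markers ran from 10.45 to 10.97 in brachial and from 10.51 to 11.15 in internal mammary scrapes, higher in the brachial artery in 4 of 7 pigs (two-sided exact sign-flip p = 0.688, adjusted p = 0.734 over 9 marker means). Of these 14 markers, 1 was higher in the brachial artery (EGFL7), 0 were higher in the internal mammary artery and 13 did not pass, VWF among them.

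The arteries differed in many other probe sets. Of 23999 probe sets, 6333 passed an adjusted p of 0.05 in the paired limma fit (26.4%), 3507 of them higher in the brachial (14.6%) and 2826 higher in the internal mammary artery (11.8%). With 1 probe set a gene, the brightest one, 1602 of 6765 named genes passed (23.7%), 932 higher in the brachial (13.8%) and 670 higher in the internal mammary artery (9.90%). Each gene list count below stands beside these shares of all named genes. Most differences were small, with a median size of 0.36 among passing probe sets and a median difference of 0.03 over all probe sets. Differences of at least 2-fold were more often higher in the internal mammary artery, with 211 probe sets against 109 higher in the brachial artery. In 4875 of the 6333 the sign was the same in 7 of 7 pigs. The number of arrays limits the precision of each value, and nothing in the labels says how the arrays of the arteries were divided over hybridisation runs, so artery and array run cannot be told apart.

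Array and RNA controls also differed between the arteries, in the same pigs and just as regularly. Hybridisation controls are bacterial and phage RNAs added in fixed amounts before hybridisation, and they should not depend on the tissue. The mean of their 9 probe sets lay between 11.15 and 11.42 (median 11.33) on brachial and between 10.32 and 10.91 (median 10.57) on internal mammary arrays, and the groups did not overlap. That is a difference of 0.67, higher on the brachial array in 7 of 7 pigs (two-sided exact sign-flip p = 0.0156, the smallest that 7 pairs can give, adjusted p = 0.0247 over 19 control measures). BioB, BioC and BioD differed by 0.84, 0.82 and 0.78, and Cre, the brightest, by 0.15, each in 7 of 7 pigs. Spikes added before labelling were dim, at 3.57 and 3.49 (means of the brachial and the internal mammary arrays), with a difference of 0.08 in 6 of 7 pigs (exact p = 0.0469, adjusted p = 0.0495).

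The difference between the 3' and 5' probe sets of a long-lived transcript rises as RNA is degraded or copied less far from the poly(A) tail. For actin it lay between 1.80 and 2.74 on brachial and between 1.03 and 1.75 on internal mammary arrays, again without overlap. The artery difference was 0.87, higher in 7 of 7 pigs (exact sign-flip p = 0.0156, adjusted p = 0.0247). Elongation factor EF1a gave 0.29 in 7 of 7 pigs and a second actin set gave 0.55 in 6 of 7. One GAPDH set also had a positive difference, 0.18 in 7 of 7 pigs, while the other gave -0.29, lower in 6 of 7 pigs (exact p = 0.0469, adjusted p = 0.0495). Integrity as read from ribosomal RNA in the labels went the other way from actin, with a 28S/18S ratio of 1.21 to 1.79 (median 1.31) in brachial and 1.07 to 1.29 (median 1.18) in internal mammary RNA. It was higher in the brachial sample in 6 pigs and equal in 1 (exact p = 0.0312, adjusted p = 0.0396). The amount of RNA in the labels did not differ regularly, being higher in the brachial sample in 4 of 7 pigs (exact p = 0.312).

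Ribosomal RNA, which has no poly(A) tail, gave the widest control differences. The 28S probe set read between 6.22 and 8.82 on brachial and between 10.24 and 14.04 on internal mammary arrays, and its difference of -4.38 was negative in 7 of 7 pigs (exact sign-flip p = 0.0156, adjusted p = 0.0247). A second 28S probe set gave -3.10 and a second 18S probe set -3.71, also in 7 of 7 pigs, whereas the other 18S probe set gave 0.85, higher in 6 of 7. Exercised pigs, which are other animals, gave close values: 0.63 for the hybridisation controls, 0.94 for actin and -4.44 for 28S, each with the same sign in 7 of 7 pigs.

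**Figure D1:**
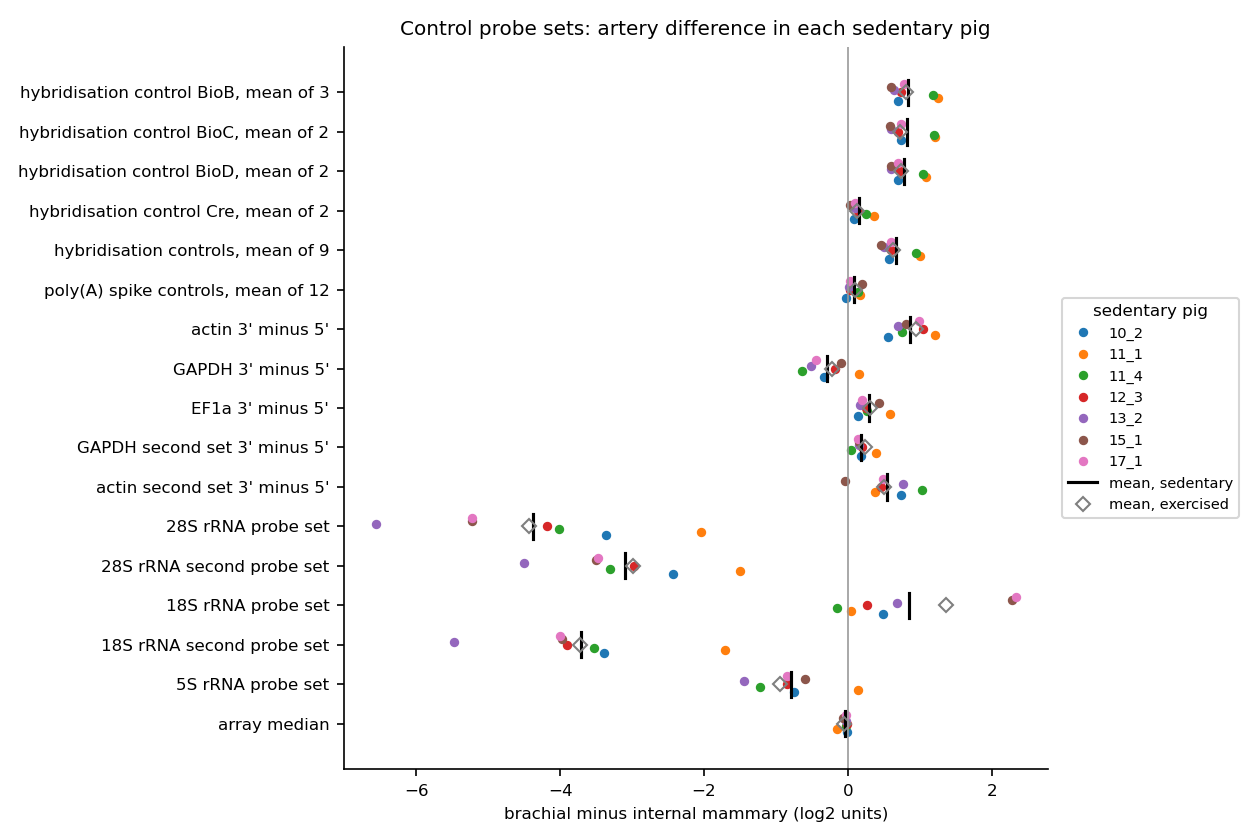
Differences of control probe sets and array medians between the brachial and the internal mammary array of each sedentary pig (horizontal axis, log2 units), with 1 coloured point a pig, a black bar at the mean of 7 pigs and an open diamond at the mean of 7 exercised pigs. Hybridisation controls and the actin 3' minus 5' difference lie to the right of 0 in every sedentary pig, and the 28S probe sets lie between -6.57 and -1.50.

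These control differences move with every gene comparison below, and their part in it was tested only as covariates. With the actin difference as a covariate 850 probe sets passed, and with the hybridisation control difference 0 passed in limma, with 2039 at an unadjusted p under 0.05. Both fits estimate the artery difference at a control difference of 0, which no pig had: the lowest were 0.56 for actin and 0.47 for the hybridisation controls. The 28S/18S ratio as a covariate left 3641. Of 107 named genes that passed in the paired fit, 20 kept their call with the actin covariate. With the 28S/18S ratio 64 kept it, and with the hybridisation controls 0.

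The 12 largest differences toward the brachial artery came from genes of mixed function. EDF1, a transcriptional coactivator that binds calmodulin, had the largest difference among genes with the same sign in all 7 pigs. Its level lay between 9.08 and 9.67 (median 9.35) in the brachial and between 7.28 and 7.57 (median 7.36) in the internal mammary artery, a 3.90-fold difference (1.97 ± 0.08, adjusted p = 1.64e-05). No internal mammary array reached the lowest brachial array. Dermatopontin (DPT), a small matrix protein of fibroblasts that binds decorin and collagen, lay between 8.32 and 9.95 (median 8.87) against 6.62 to 7.89 (median 7.24). It was 3.48-fold higher in the brachial artery (1.80 ± 0.11, adjusted p = 4.42e-05), also without overlap. The phospholipid flippase ATP10A was 3.38-fold higher (1.76 ± 0.23), with overlapping groups, and cysteine dioxygenase CDO1, which starts the breakdown of cysteine, 3.10-fold higher (1.63 ± 0.18) without overlap.

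The other genes among these 12 differed by 2.4-fold to 2.9-fold. Tousled-like kinase TLK1 (1.53 ± 0.09) was joined by MFAP2, a glycoprotein of elastic microfibrils (1.53 ± 0.25), the neuronal calcium sensor HPCAL1 (1.46 ± 0.11) and the junction protein plakoglobin, JUP (1.46 ± 0.09). None of these 4 overlapped between arteries. Groups did overlap for periostin (POSTN, 1.34 ± 0.24), a matrix protein induced by TGF-beta, for the fibroblast surface protein THY1 (1.31 ± 0.24), for CILP, a matrix protein of cartilage and fibroblasts (1.30 ± 0.20), and for BEND6 (1.28 ± 0.31). THY1 had 3 probe sets and all 3 were higher in the brachial artery. TLK1 had a second, dimmer probe set that was lower there (-0.26 ± 0.06), so its direction depends on the probe set. Periostin's mean rests in part on pig 15_1, whose difference was 2.99 against 0.63 to 1.34 in the others.

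Genes higher in the internal mammary artery reached larger differences. LOC100154873, a locus without a gene name, read between 8.46 and 11.17 (median 10.17) there and between 5.16 and 7.31 (median 5.89) in the brachial artery, a 13.9-fold difference (-3.80 ± 0.41, adjusted p = 0.000441). The zinc finger protein ZNF12 lay between 6.57 and 7.97 against 4.58 to 5.54 and was 4.80-fold higher in the internal mammary artery (-2.26 ± 0.10, adjusted p = 1.64e-05). Both were without overlap. RERG, a small GTPase that restrains growth, was 4.78-fold higher (-2.26 ± 0.40), with a pair difference that ran from -4.85 to -1.10.

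The rest included genes of growth control, matrix cross-linking and the actin cytoskeleton. BTG2, an antiproliferative gene of the early response, lay between 10.69 and 12.31 (median 11.75) in the internal mammary and between 8.67 and 10.55 (median 9.39) in the brachial artery (-2.07 ± 0.22, adjusted p = 0.000417). LOX, the lysyl oxidase that cross-links collagen and elastin, lay between 11.01 and 12.06 (median 11.48) against 8.86 to 10.74 (median 9.87), a 3.67-fold difference (-1.87 ± 0.19, adjusted p = 0.000315). In neither gene did the arteries overlap. A second LOX probe set, dim at a mean of 4.94, gave 0.17 ± 0.07 and did not pass. Also higher in the internal mammary artery were ARHGAP29 (-1.68 ± 0.21), ARHGEF12 (-1.66 ± 0.09) and the non-muscle myosin heavy chain MYH10 (-1.61 ± 0.17), a motor of the actin cytoskeleton. The translation regulator CPEB2 (-1.64 ± 0.13), the cyclic nucleotide phosphodiesterase PDE3A (-1.64 ± 0.14) and the actin-binding ENC1 (-1.60 ± 0.33) completed the 12 with FOS. PDE3A had a second probe set of the opposite sign (0.29 ± 0.09), and a second probe set of ARHGEF12 gave 0.11 ± 0.07.

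**Figure D2:**
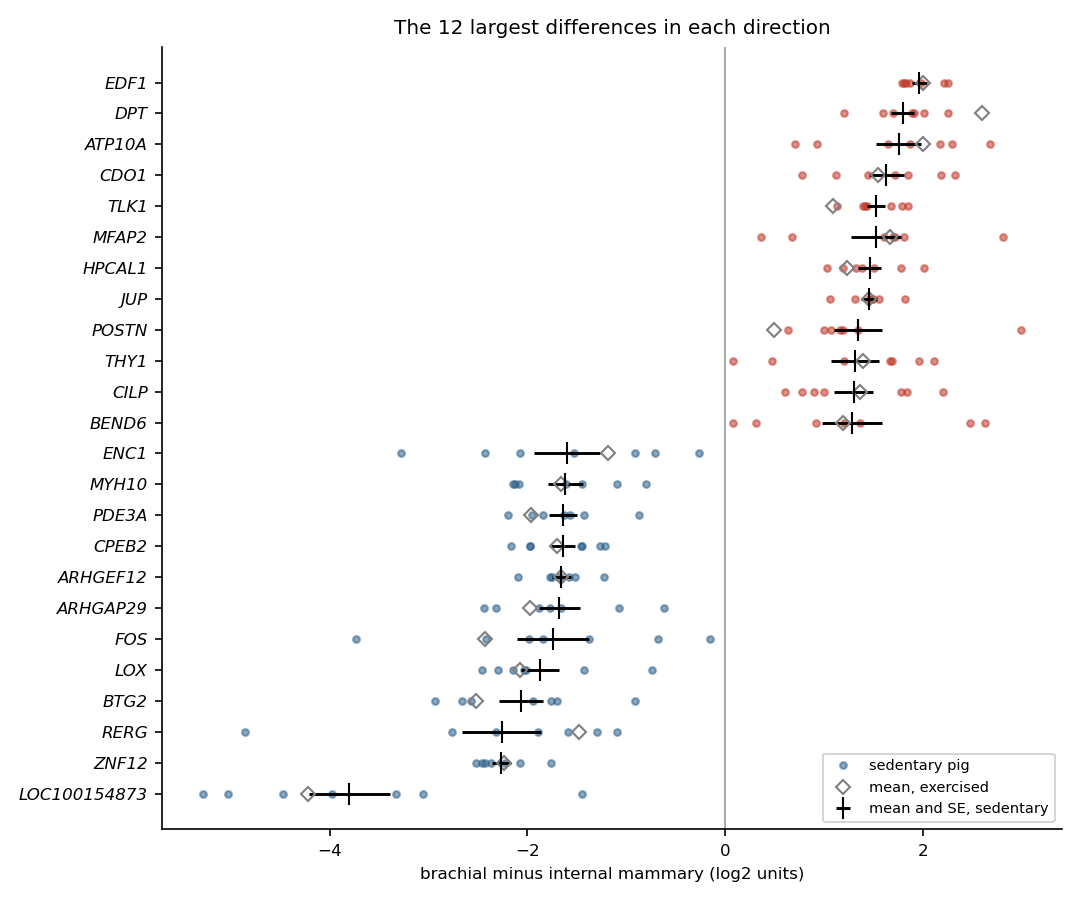
Artery differences of the 12 named genes with the largest differences in each direction among those with the same sign in 7 of 7 sedentary pigs (horizontal axis, log2 units). Points are single sedentary pigs, black marks the mean with its SE over 7 pigs, and open diamonds are means of 7 exercised pigs. EDF1, JUP and ZNF12 have narrow spreads, whereas LOC100154873, RERG, FOS and ENC1 vary several-fold between pigs, and the periostin diamond (0.49) lies below all 7 sedentary points.

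These 24 genes were picked for size and for passing with the same sign in the same 7 pigs, a choice that favours groups without overlap. The share of all named genes without overlap was not counted, so lack of overlap, here or below, is not set against it. Each of the 24 genes kept its call with any single pig left out. With the actin difference as a covariate 9 of 24 still passed with the same sign, 13 did not pass, and CILP and RERG changed sign without passing, to -0.83 and 0.22. With the hybridisation control covariate 0 of 24 passed. THY1, BEND6 and FOS did not pass with the 28S/18S covariate, and FOS did not without pigs 11_1, 13_2 and 15_1 together. The 9 that passed with the actin covariate were EDF1, DPT, ATP10A, CDO1, TLK1, ZNF12, BTG2, FOS and ARHGEF12.

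Immediate early genes, which cells switch on within minutes of a stimulus and which include the FOS and JUN partners of the AP-1 factor, were the list that moved most to one side. Of 14 measured members 9 were higher in the internal mammary artery, 1 was higher in the brachial artery and 4 did not pass, with a median difference of -0.70 against 0.02 over all named genes. Of all named genes 9.90% were higher in the internal mammary and 13.8% higher in the brachial artery. JUN lay between 12.23 and 13.23 (median 12.71) in the internal mammary and between 11.27 and 12.20 (median 11.90) in the brachial artery, without overlap (-0.91 ± 0.07, adjusted p = 0.000119). FOS differed more but less evenly, between 12.09 and 13.59 (median 13.24) against 9.50 to 12.66 (median 11.24). It was lower in the brachial artery in 7 of 7 pigs, by 0.15 to 3.74 (-1.74 ± 0.37, adjusted p = 0.00998).

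The zinc finger factor EGR1 was 2.03-fold higher in the internal mammary artery (-1.02 ± 0.20, adjusted p = 0.00735), in 6 of 7 pigs and by all 3 of its probe sets. Pig 17_1 gave 0.31. IER2 (-0.95 ± 0.15) did not overlap between arteries. ZFP36, which speeds the decay of inflammatory mRNAs (-0.79 ± 0.18), IER3 (-0.56 ± 0.09) and FOSL2 (-0.22 ± 0.05) were lower in the brachial artery in 7 of 7 pigs with overlapping groups. DUSP1, a phosphatase that turns off MAP kinases, gave -0.69 ± 0.18, and its call ended without pig 10_2, 11_4, 12_3 or 13_2 (adjusted p from 0.0544 to 0.0630). FOSL1 ran the other way (0.20 ± 0.05, 3 of 3 probe sets), and its call ended without 11_1, 11_4, 12_3, 13_2 or 15_1 (adjusted p from 0.0514 to 0.0700). The count of members higher in the internal mammary artery lay between 8 and 10 with any 1 pig left out, and its members changed. It was 4 with the 28S/18S covariate and 6 without pigs 11_1, 13_2 and 15_1 together. With the actin covariate JUN, EGR1, ZFP36, IER3, FOSL2, DUSP1 and FOSL1 lost their calls. No member passed with the hybridisation control covariate. The calls of IER3 and FOSL2 ended without the pairing and with pig as a random block.

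Of 13 measured genes that endothelium regulates with shear, 2 were higher in the internal mammary artery and 11 did not pass (median difference -0.01). That is 15.4% of the list. Of all named genes 9.90% were higher in the internal mammary artery and 23.7% passed in either direction. CYR61, a matrix-bound signalling protein, gave -0.86 ± 0.15 (adjusted p = 0.00444) and the flow-responsive factor KLF4 gave -0.56 ± 0.13 (adjusted p = 0.0155). Both were lower in the brachial artery in 7 of 7 pigs, with overlapping groups.

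**Figure D3:**
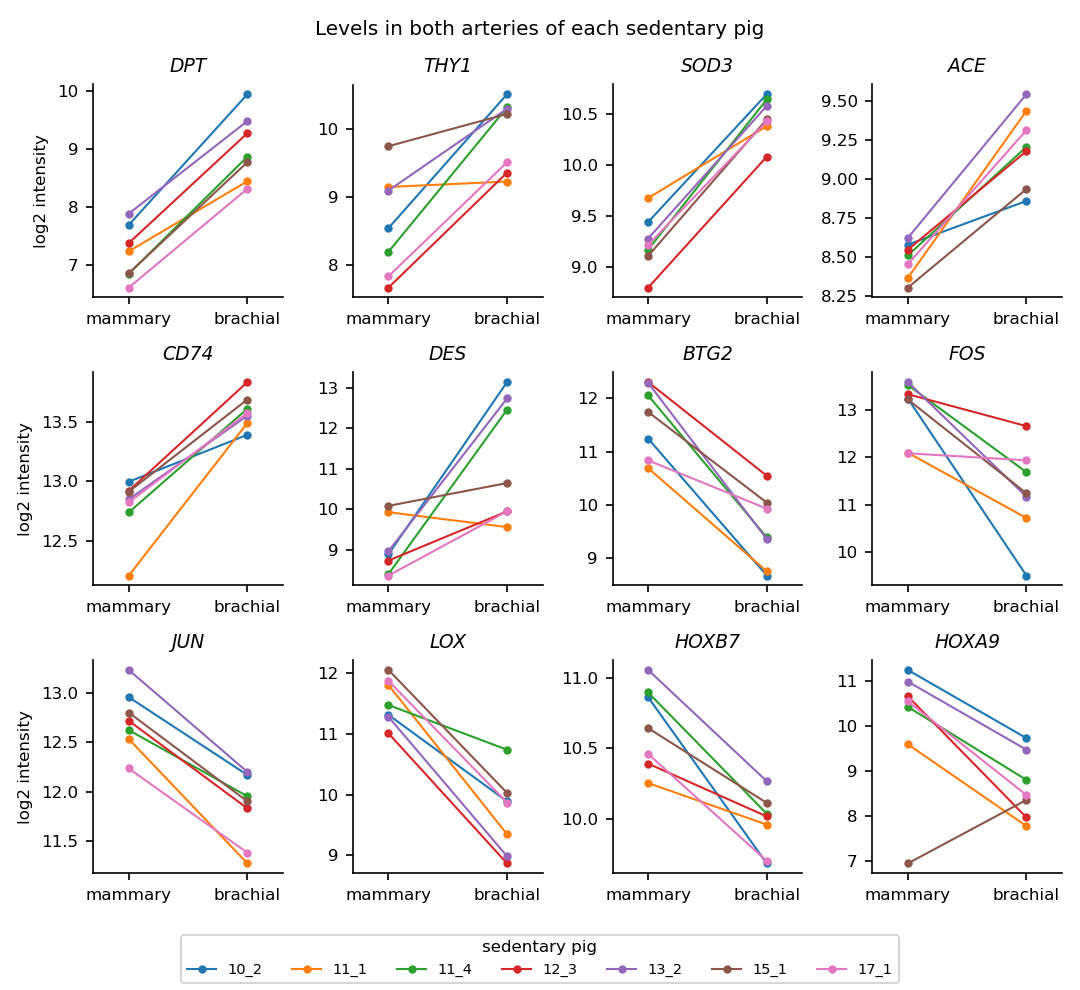
Levels of 12 genes (vertical axis, log2 intensity, not starting at 0) in the internal mammary and the brachial artery of each sedentary pig, with 1 line a pig. All 7 lines rise for DPT, THY1, SOD3, ACE and CD74 and fall for BTG2, FOS, JUN, LOX and HOXB7, whereas pig 11_1 falls for DES and pig 15_1 rises for HOXA9.

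Positional genes are transcription factors that record where along the body a cell arose. Of 6 HOX genes measured, 2 were higher in the internal mammary artery, 0 were higher in the brachial artery and 4 did not pass. The shares over all named genes were 9.90% and 13.8%. HOXB7 lay between 10.25 and 11.06 (median 10.64) in the internal mammary and between 9.68 and 10.27 (median 10.02) in the brachial artery. The groups touched at their edges, yet each pig was lower in the brachial artery (-0.68 ± 0.11, adjusted p = 0.00247), and a second HOXB7 probe set gave -0.82 ± 0.11. HOXA9 lay between 9.59 and 11.23 in the internal mammary artery of 6 pigs and at 6.94 in pig 15_1, against 7.77 to 9.72 in the brachial artery.

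HOXA9 thus gave -1.40 ± 0.41 (adjusted p = 0.0344) with 6 of 7 pigs lower in the brachial artery, from -2.69 to -1.51, and pig 15_1 at 1.41. Its call ended without any one of 10_2, 11_1, 11_4, 12_3, 13_2 or 17_1 (adjusted p from 0.0603 to 0.0871) and kept without 15_1. In exercised pigs it was -2.06, lower in 7 of 7. The remaining members were HOXD12 (0.26 ± 0.08, adjusted p = 0.0503), HOXD8 (-0.22 ± 0.08, adjusted p = 0.0684), HOXA3 (-0.23 ± 0.11, adjusted p = 0.162) and HOXD10 (0.02 ± 0.07, adjusted p = 0.856).

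Among 21 other positional factors 8 were higher in the brachial artery, beside 13.8% of all named genes. In the internal mammary artery 0 were higher, beside 9.90%, and 13 did not pass (median difference 0.18). MSX1, a homeobox gene of limb and head mesenchyme, lay between 7.68 and 8.23 (median 8.15) in the brachial and between 7.09 and 7.64 (median 7.40) in the internal mammary artery, without overlap. Its difference was 0.66 ± 0.10 (adjusted p = 0.00178), and a second probe set gave 0.39 ± 0.08. DLX5, a homeobox gene of limb and bone, differed by 0.51 ± 0.06 (adjusted p = 0.000807). The zinc finger TSHZ2 (0.72 ± 0.17), HAND1 (0.32 ± 0.07) and TBX2 (0.28 ± 0.07) were likewise higher in 7 of 7 pigs. GATA3, GATA4 and LHX9 differed by 0.23, 0.26 and 0.23. The other GATA3 probe sets gave -0.23, -0.29 and 0.02 and the other GATA4 probe set -0.05, none of which passed.

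Of these 21 members 12 lie below the median brightness of all probe sets, where probe sets higher in the brachial artery were more frequent in general. GATA3, GATA4 and LHX9 are among the dim ones and did not pass after quantile or cyclic loess normalization, which left 5 of the 8. With the actin covariate only MSX1 of the 8 kept its call. TBX2, LHX9, GATA3, HAND1, DLX5 and TSHZ2 did not pass, and GATA4 changed sign without passing. No member passed with the hybridisation control covariate. With 1 pig left out GATA3 lost its call without 12_3 or 13_2 (adjusted p up to 0.0543), GATA4 without 11_1, 11_4, 13_2, 15_1 or 17_1 (up to 0.0973) and LHX9 without 10_2, 11_4, 12_3, 13_2 or 15_1 (up to 0.0747).

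Of 16 collagens and basement membrane genes 5 were higher in the brachial artery, beside 13.8% of all named genes, 0 were higher in the internal mammary artery and 11 did not pass, and 15 of 16 had positive differences (median 0.23). COL8A1, the short-chain collagen of endothelium and intima, lay between 11.76 and 12.62 (median 12.21) in the brachial and between 10.95 and 11.85 (median 11.44) in the internal mammary artery. It was 1.81-fold higher (0.85 ± 0.11, adjusted p = 0.000882), and 2 of its 4 probe sets passed. COL5A2 gave 0.49 ± 0.08 without overlap. The microfibrillar collagens COL6A2 (1.27 ± 0.32) and COL6A3 (1.36 ± 0.40) and the fibril regulator COL5A1 (0.75 ± 0.23) differed more but varied more. They were higher in 6, 5 and 6 of 7 pigs.

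The calls of those 3 of the 5 ended without single pigs: COL6A2 without 10_2, 11_4 or 13_2 (adjusted p from 0.0522 to 0.0577), COL6A3 without these or 12_3 or 17_1 (0.0841 to 0.0918) and COL5A1 without the same 5 pigs (0.0738 to 0.103). Of the list, 2 to 6 members passed with 1 pig left out. COL5A1 had 6 probe sets, of which 2 passed, and its next brightest gave 0.26 ± 0.20 (adjusted p = 0.352).

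Of 20 elastic fibre genes and proteoglycans 3 were higher in the brachial artery (MFAP2, CILP and the cartilage proteoglycan ACAN at 0.28 ± 0.07). LOX was higher in the internal mammary artery and 16 did not pass. The passing share of 20% was near the 23.7% of all named genes. Of 20 matrix proteases and inhibitors 8 were higher in the brachial artery, beside 13.8% of all named genes. In the internal mammary artery 0 were higher, and 12 did not pass (median 0.16). SERPINE2, which blocks thrombin and urokinase, gave 0.62 ± 0.08 (adjusted p = 0.00114) and the gelatinase MMP2 gave 0.50 ± 0.10 (adjusted p = 0.00693), both in 7 of 7 pigs.

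TIMP3, a matrix-bound protease inhibitor, gave 0.43 ± 0.11 and was higher by all 3 of its probe sets in sedentary pigs, but its call ended without 11_4, 12_3 or 17_1 (adjusted p from 0.0547 to 0.0651). In exercised pigs its difference was -0.11 (adjusted p = 0.428). The collagenase MMP1 gave 0.25 ± 0.07 at a mean level of 3.3 and lost its call without 10_2, 11_4 or 15_1 (adjusted p from 0.0585 to 0.0704) and after quantile or cyclic loess normalization. Of this list 3 to 6 members were higher in the brachial artery with 1 pig left out, 3 after quantile normalization and 4 after cyclic loess.

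Of 15 measured genes of the vasoconstrictor list 5 were higher in the brachial artery, beside 13.8% of all named genes, 0 were higher in the internal mammary artery and 10 did not pass (median 0.28). Of the 15 members 9 lie below the median brightness. Without the pairing, and with pig as a random block over 14 arrays, 4 were higher in the brachial and 2 higher in the internal mammary artery. Angiotensin-converting enzyme (ACE), which makes angiotensin II at the endothelial surface, lay between 8.86 and 9.54 (median 9.20) in the brachial and between 8.30 and 8.62 (median 8.51) in the internal mammary artery. The groups did not overlap, and the difference was 0.73 ± 0.09 (adjusted p = 0.000903). Its precursor substrate angiotensinogen (AGT, 0.60 ± 0.08, adjusted p = 0.00144) and the nerve peptide NPY (0.37 ± 0.06, adjusted p = 0.00289) were dim but also without overlap. The serotonin receptor HTR1B gave 0.39 ± 0.07 in 7 of 7 pigs, and its call ended without the pairing. ADRB1, a beta-adrenergic receptor known mainly for driving the heart, gave 0.28 ± 0.07 in 6 of 7 and lost its call without 10_2, 13_2 or 15_1 (adjusted p from 0.0542 to 0.0596). Endothelin EDN1 did not pass (0.48 ± 0.16, adjusted p = 0.0536). With the actin covariate ACE, AGT, NPY, HTR1B and ADRB1 lost their calls. No member passed with the hybridisation control covariate.

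On the dilator side 2 of 18 measured genes were higher in the internal mammary artery, beside 9.90% of all named genes. In the brachial artery 0 were higher, and 16 did not pass, NOS3 among them. CALCRL, the receptor subunit for CGRP and adrenomedullin, lay between 5.96 and 7.02 there and between 4.83 and 5.71 in the brachial artery, without overlap (-0.92 ± 0.19, adjusted p = 0.00918). Cyclooxygenase PTGS2 gave -1.17 ± 0.28 (adjusted p = 0.0176) in 6 of 7 pigs. Its call, like those of 22 other genes named here, ended when the arrays were compared without the pairing.

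Antioxidant enzymes were led by SOD3, the superoxide dismutase secreted into the vessel wall. It lay between 10.08 and 10.70 (median 10.45) in the brachial and between 8.79 and 9.68 (median 9.21) in the internal mammary artery. SOD3 was 2.34-fold higher in the brachial artery (1.23 ± 0.09, adjusted p = 7.85e-05), without overlap. It passed with the actin covariate and did not pass with the hybridisation control covariate. Of 23 oxidant defence genes 2 were higher in the brachial artery, 3 were higher in the internal mammary artery and 18 did not pass. The passing share of 21.7% was near the 23.7% of all named genes. Secreted glutathione peroxidase GPX3 gave -0.65 ± 0.12 (adjusted p = 0.00629, a call that ended without the pairing), catalase (CAT) -0.29 ± 0.08, the mitochondrial peroxiredoxin PRDX3 -0.21 ± 0.06 and GPX7 0.24 ± 0.07.

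The last 3 calls depended on single pigs: CAT ended without 10_2, 13_2 or 15_1 (adjusted p up to 0.0578), PRDX3 without any pig but 10_2 (up to 0.0865) and GPX7 without any pig but 10_2 and 12_3 (up to 0.0950). Oxidative phosphorylation genes hardly differed, with 1 of 33 passing (UQCRB, -0.24 ± 0.05) and a range from -0.24 to 0.13. That is 3.03% of the list, beside 23.7% of all named genes.

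**Figure D4:**
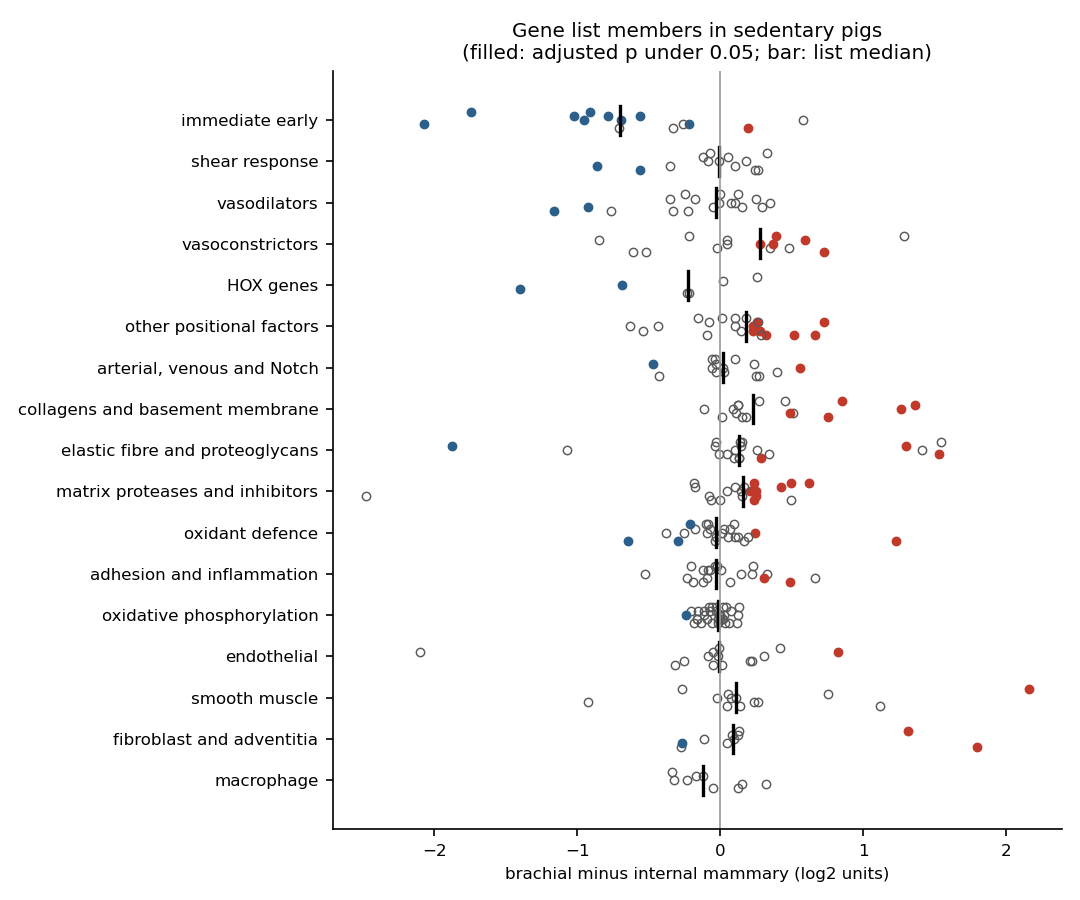
Artery differences (horizontal axis, log2 units) of the measured members of 17 gene lists in sedentary pigs, 1 point a gene. Filled points have an adjusted p under 0.05, red where higher in the brachial and blue where higher in the internal mammary artery, open points do not, and bars are list medians. Immediate early genes lie mostly to the left (median -0.70), collagens and vasoconstrictors to the right (0.23 and 0.28), and oxidative phosphorylation genes within 0.24 of 0.

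Of the immune lists 11.1% (antigen presentation), 15.8% (interferon response) and 10% (adhesion and inflammation) passed, each below the 23.7% of all named genes. The invariant chain CD74, which escorts class II molecules to antigen-loading compartments, was 1.76-fold higher in the brachial artery (0.82 ± 0.10, adjusted p = 0.000609), between 13.39 and 13.84 against 12.21 to 13.00 without overlap. Of 18 antigen presentation genes it was the 1 higher in the brachial artery, and SLA-7 (-0.22 ± 0.07) was the 1 higher in the internal mammary artery. SLA-7 has close relatives that can share its probes, and its call ended without 10_2, 11_1, 11_4, 12_3 or 13_2 (adjusted p up to 0.0930) and after centring or renormalizing the arrays.

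Of 19 interferon response genes EIF2AK2, the kinase that halts translation on double-stranded RNA, was lower in the brachial artery (-0.89 ± 0.14, adjusted p = 0.00235), and so was RSAD2 (-0.84 ± 0.24), while STAT2 was higher (0.22 ± 0.06). RSAD2 lost its call without 10_2, 15_1 or 17_1 (adjusted p up to 0.0732) and STAT2 without 10_2, 12_3, 13_2, 15_1 or 17_1 (up to 0.0834). Of 20 adhesion and inflammation genes 2 were higher in the brachial artery, IRF1 (0.48 ± 0.14) and NFKB1 (0.30 ± 0.09), and 18 did not pass. IRF1 lost its call without 11_1, 11_4, 12_3, 15_1 or 17_1 (up to 0.0935) and NFKB1 without any pig but 13_2 (up to 0.0943).

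In the growth factor pathways a few receptors and factors stood apart. TGFBR3, the TGF-beta coreceptor betaglycan (-0.79 ± 0.10, adjusted p = 0.00112), TGFB2 (-0.62 ± 0.16) and the BMP target ID1 (-0.41 ± 0.12) were lower in the brachial artery. ID2 (0.65 ± 0.11, adjusted p = 0.00326, a call that ended without the pairing) and the activin subunit INHBB (0.42 ± 0.09) were higher, and 10 of the 15 TGF-beta and BMP genes did not pass. The passing share was 33.3%, beside 23.7% of all named genes. TGFB2 lost its call without 10_2 or 11_4 (adjusted p up to 0.0550) and ID1 without 10_2, 11_4 or 12_3 (up to 0.0648). All 4 probe sets of TGFB2 were negative, from -0.62 to -0.19, and 1 of them passed.

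LEF1, a nuclear effector of Wnt signals, was 1.79-fold higher in the brachial artery (0.84 ± 0.15, adjusted p = 0.00493). The ligand FGF9 (0.31 ± 0.08) was the other of 2 genes passing among 15 of Wnt and FGF, and its call ended without 12_3, 13_2 or 17_1 (adjusted p up to 0.0661) and after quantile or cyclic loess normalization. EPAS1, the hypoxia factor of endothelium (-0.59 ± 0.07, adjusted p = 0.000577), and VEGFA (-0.28 ± 0.07, adjusted p = 0.0173) were higher in the internal mammary artery in 7 of 7 pigs, and the other 13 VEGF, angiopoietin and hypoxia genes did not pass. The passing share was 13.3% in this list and also in that of Wnt and FGF, below the 23.7% of all named genes.

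Of 15 arterial, venous and Notch genes 1 was higher in each artery, a passing share of 13.3% beside 23.7% of all named genes. NRP2, a semaphorin and VEGF coreceptor, was higher in the brachial artery without overlap (0.56 ± 0.06, adjusted p = 0.000545). RBPJ, the DNA-binding partner of Notch, was lower there by all 3 of its probe sets, from -1.04 to -0.47. Among 17 coagulation genes SERPINE2, the broad protease inhibitor A2M (0.77 ± 0.15, adjusted p = 0.00714) and heparin cofactor SERPIND1 (0.34 ± 0.09) were higher in the brachial artery. The pathway inhibitor TFPI2 (-0.60 ± 0.10, adjusted p = 0.00334) and factor VIII, F8 (-0.78 ± 0.18, adjusted p = 0.0149), were higher in the internal mammary artery. The passing share of the coagulation list was 29.4%. SERPIND1 lost its call without 10_2, 13_2 or 15_1 (adjusted p up to 0.0661).

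Of 22 lipid handling genes APOE, the ligand by which cells take up remnant lipoproteins, was 2.17-fold higher in the brachial artery (1.12 ± 0.16, adjusted p = 0.00150), by both of its probe sets. ABCA1, which exports cholesterol, was 1.98-fold higher in the internal mammary artery in 7 of 7 pigs (-0.98 ± 0.13, adjusted p = 0.000982). The remaining 20 did not pass, so the passing share was 9.09%, below the 23.7% of all named genes. Of 24 heat shock and unfolded protein genes 3 were higher in each artery: the calcium-binding chaperone CALR (0.51 ± 0.06), the small chaperone HSPB1 (0.31 ± 0.07) and the heat shock factor HSF1 in the brachial, the cochaperones DNAJB9 (-0.51 ± 0.10) and DNAJB1 (-0.42 ± 0.08) and the disulfide isomerase PDIA6 in the internal mammary artery. The passing share of the heat shock list, 25%, was near the 23.7% of all named genes. Of 8 clock genes NFIL3 (-0.51 ± 0.09, adjusted p = 0.00459) and ARNTL (-0.40 ± 0.12) were lower in the brachial artery and PER1 (0.20 ± 0.06) was higher, a passing share of 37.5%. ARNTL lost its call without any pig but 17_1 (adjusted p up to 0.0905) and PER1 without any pig but 11_4 (up to 0.114).

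Markers of other cell types moved only in part with the artery. The mean of 10 measured fibroblast markers ran from 10.30 to 10.80 in the brachial and from 10.15 to 10.64 in the internal mammary scrapes and was higher in the brachial scrape in 7 of 7 pigs, by 0.29 (exact sign-flip p = 0.0156, adjusted p = 0.141 over 9 marker means). In bulk samples, more cells of a type and more RNA per cell cannot be told apart. Of these 10 markers 2 were higher in the brachial artery, DPT (1.80) and THY1 (1.31), and CLEC3B was lower (-0.27 ± 0.07), while 7 did not pass. The median difference of the 10 was 0.09, with 3 of them negative, so the shift of the mean rests largely on DPT and THY1. In exercised pigs the median was -0.05. CLEC3B lost its call without 10_2, 11_4, 12_3, 13_2 or 17_1 (adjusted p up to 0.0725). The fibroblast mean moves with the collagen list, and its part in that result was not tested. The smooth muscle mean also moves with 3 of the collagens: COL6A2 differed by 2.09, 2.01 and 2.47 in pigs 10_2, 11_4 and 13_2, where smooth muscle markers were higher in the brachial scrape, and by -0.51 and 0.52 in 11_1 and 15_1, where they were lower. COL6A3 and COL5A1 were likewise lowest in 11_1 and 15_1, and their calls and that of COL6A2 passed with the smooth muscle covariate.

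Smooth muscle markers, 13 in number, had a mean between 10.95 and 12.76 in the brachial and between 11.11 and 12.51 in the internal mammary scrapes, so they were present in both. Their difference ran from -1.56 in pig 11_1 and -0.41 in pig 15_1 to 1.36 in pig 10_2 (mean 0.29, exact sign-flip p = 0.578, adjusted p = 0.734). Desmin (DES), the intermediate filament of muscular arteries, was the 1 marker that passed. It lay between 9.56 and 13.15 (median 10.65) in the brachial and between 8.36 and 10.09 (median 8.89) in the internal mammary artery, a 4.46-fold difference (2.16 ± 0.58, adjusted p = 0.0258) in 6 of 7 pigs. Its call ended without 10_2, 11_4 or 13_2 (adjusted p from 0.0606 to 0.0660), the pigs whose smooth muscle mean was most shifted toward the brachial scrape. With the smooth muscle mean as a covariate 9202 probe sets passed, and all 6333 were among them with the same sign. That mean includes DES itself and was fitted over 7 pairs, and the part of smooth muscle was not tested otherwise.

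Of 9 macrophage markers 0 passed in sedentary pigs, and their mean differed by -0.07 with 3 of 7 pigs higher in the brachial scrape (adjusted exact sign-flip p = 0.734). In exercised pigs it differed by -0.50, lower in 7 of 7. Adipsin (CFD, -0.89 ± 0.15, adjusted p = 0.00345) was the 1 of 8 adipocyte markers higher in the internal mammary artery and leptin (LEP, 0.28 ± 0.09) the 1 higher in the brachial artery. The leptin call ended with each of the 7 pigs left out (adjusted p from 0.0513 to 0.106). The B cell receptor chain CD79B (-0.59 ± 0.14) and globin HBB (-0.36 ± 0.07, without overlap) were lower in the brachial artery, the 1 passing of 7 lymphocyte and of 5 erythroid and platelet markers. CD79B was the 1 negative lymphocyte marker, against 6 positive and a list median of 0.29. The lymphocyte mean was higher in the brachial scrape in 5 of 7 pigs (adjusted exact sign-flip p = 0.734). S100B of Schwann cells and fat (0.42 ± 0.10, the 1 of 3 nerve markers) and titin (TTN, 0.22 ± 0.05, the 1 of 10 skeletal muscle markers) were higher in the brachial artery. S100B lost its call without 13_2 or 15_1 (adjusted p up to 0.0520), and TTN, at a mean of 3.9, after quantile or cyclic loess normalization.

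The pigs were not alike, and the genes whose artery difference varied most fell into a few recurring patterns. The 12 named genes with the largest SD of the difference were SCARA5, SULT1E1, CLDN11, MMP7, PCOLCE2, TMEM158, PTGFR, F3, NPG4, PLA1A, VWF and S100A9, with SDs from 2.37 to 3.81 against a median of 0.21 over all named genes. None of the 12 passed in sedentary pigs.

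In one pattern 3 internal mammary arrays stood alone. The matrix protease MMP7 read 9.09, 12.26 and 11.54 in the internal mammary artery of pigs 11_1, 13_2 and 15_1 and between 4.07 and 5.14 in that of the other 4, and no brachial array exceeded 5.43. In the internal mammary artery of exercised pigs it reached 5.16 at most. The phospholipase PLA1A followed the same arrays (8.12, 9.86 and 9.13, against 4.50 to 4.73), as did the brightest of 3 probe sets of von Willebrand factor, VWF (11.09, 12.06 and 11.16, against 6.83 to 8.35). That VWF probe set gave -2.10 ± 0.74 (adjusted p = 0.0636), with -5.74 in 13_2, -4.65 in 15_1 and -2.98 in 11_1. A second VWF probe set gave 0.40 ± 0.07 in 7 of 7 pigs and passed, and the third gave -0.18 ± 0.13, so no direction is given for VWF.

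A second pattern set pigs against each other. The scavenger receptor SCARA5 was higher in the internal mammary artery of pigs 11_1 and 15_1 (differences of -3.63 and -5.39) and higher in the brachial artery of 10_2, 11_4 and 13_2 (4.46, 4.41 and 2.59). The procollagen enhancer PCOLCE2 gave -3.08 and -5.59 against 3.43, 3.88 and 1.80 in the same pigs. Estrogen sulfotransferase SULT1E1, the prostaglandin F receptor PTGFR and tissue factor F3, which starts coagulation, had the same signs in those 5 pigs. Pigs 12_3 and 17_1 stayed within 1.10 of 0 for each of these 5 genes. The smooth muscle mean had the same signs in the 5 pigs, and its part was not tested. EDF1 and ZNF12 did not overlap between arteries in these pigs or any other, including 11_1 and 15_1.

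**Figure D5:**
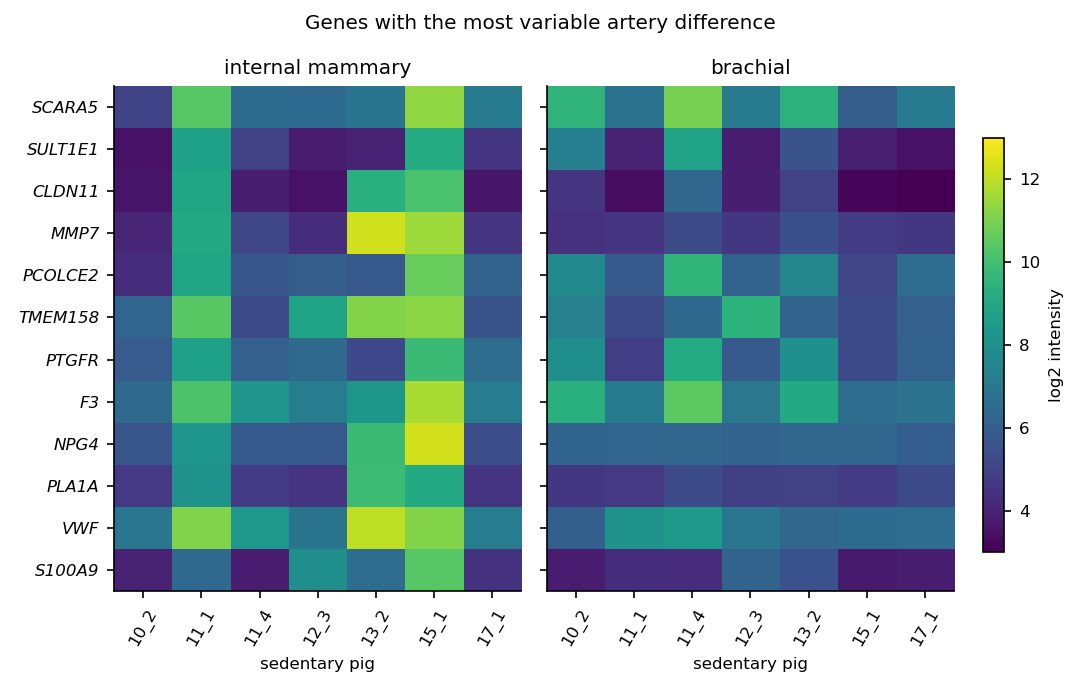
Levels (colour, log2 intensity) of the 12 named genes with the most variable artery difference, in the internal mammary (left) and brachial arrays (right) of 7 sedentary pigs. MMP7, PLA1A and VWF are highest in the internal mammary columns of pigs 11_1, 13_2 and 15_1, and SCARA5 and PCOLCE2 are also high in the brachial columns of pigs 10_2, 11_4 and 13_2.

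Exercised pigs, none of them among the 7, gave much the same artery differences. There 9101 of 23999 probe sets passed (37.9%), 5135 higher in the brachial (21.4%) and 3966 higher in the internal mammary artery (16.5%). Of the 6333 that passed in sedentary pigs, 5145 also passed in exercised pigs with the same sign, 0 passed with the opposite sign, and 6285 had the same sign. The test of the difference between the groups passed for 0 probe sets in limma, with 1057 at an unadjusted p under 0.05.

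Of the 12 genes named as highest in the brachial artery 11 passed there too, all but POSTN (0.49, adjusted p = 0.196). All 12 named as highest in the internal mammary artery did. Immediate early genes again counted 10 of 14 higher in the internal mammary artery and 1 higher in the brachial artery (median -0.82). The control differences were shared by both groups as well, so the arrays of exercised pigs do not separate artery from array controls.

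Probe sets of one gene did not always agree in direction. Of 2261 genes with several probe sets, 387 had 2 or more that passed, and in 74 of these (19.1%) they passed in both directions. NPY, SERPIND1, TTN, COL5A2 and VEGFA also had a second or further probe set of the opposite sign that did not pass. The translation factor EF1ALPHA, named after its values were seen, had 7 probe sets with differences from -3.39 ± 0.42 to 1.17 ± 0.09, both of these in 7 of 7 pigs. Direction also followed brightness. Among probe sets divided by brightness into 10 equal bins, in the bin next to the dimmest 20.1% were higher in the brachial and 4.12% higher in the internal mammary artery, with a median difference of 0.13. In the bin next to the brightest 7.54% and 15.1% were, with a median difference of -0.05. A dim gene called higher in the brachial artery, such as AGT, NPY, DLX5 or HAND1, therefore shares its direction with many probe sets of its brightness.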

How the data were processed

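RNA from luminal scrapes was measured on single-colour porcine arrays, and the analysis used the 14 arrays of 7 sedentary pigs, with 14 arrays of 7 exercised pigs beside them. The deposited values are log2 intensities per probe set. The tool affy is named in the submitters' processing notes, and the authors' background correction, normalization and summary method are not given in the sources used here. Scanner files were not used here, and the number of arrays limits the precision. Of 24123 probe sets 124 array controls were left out of the gene tests. Groups came from the titles, which differ from the source field for exercised pigs' mammary arteries (marked sedentary there).

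The labels give both arteries of a pig the same identifier and date, and pairing follows them. As a check, deviations from the artery means correlated by a median of 0.19 within pigs and -0.03 between pigs, and the own pair was the highest in 3 of 7.

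Within-pig differences were tested in limma 3.58.1 (R 4.3.3) with Benjamini-Hochberg adjustment over 23999 probe sets at 0.05. The fit was first tested on simulated data with known changes. Exercised pigs were fitted apart, and the difference between groups in one fit over 14 pigs. Control measures (19) and marker means (9) were tested by two-sided exact sign flips, whose smallest p with 7 pairs is 0.0156. P-values over pigs cover the spread between these animals.

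Names come from the platform's deposited annotation: 10069 probe sets had 1 symbol, 198 several and 13732 none, and 9961 of the former had an identifier among RefSeq genes of Sscrofa11.1. A gene stands by its brightest probe set over the 14 arrays. Named are the 12 largest differences in each direction among genes passing with the same sign in 7 of 7 pigs, up to 4 passing members of each of 31 lists, and every HOX gene and passing positional factor. VWF, MMP7, PECAM1, CDH5, NOS3, EDN1, EF1ALPHA, the most variable genes and members that complete a count were named after their values were seen. The comparison, its members and the lists were chosen with earlier results of these data known. Alternatives were another or no replicate block, other scalings, a filter on the dimmest 33.3%, other priors and weights, covariates and each pig left out. Cyclic loess and leaving out pigs 11_1 and 15_1, also with 13_2, were chosen after seeing the data. Plots used matplotlib 3.10.9 (Python 3.11.15).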

Additional observations from a re-analysis of the deposited data

Results flagged for a closer look

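Of 435 sets of 7 values that were examined (levels in 1 artery, or differences, of a named gene or control), 38 (8.74%) held 1 pig whose gap to its nearest neighbour was large for the range of the set; chance gives about 1 in 20. No explanation was tested.

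Pig 12_3 stood apart in both arteries for several genes, high for most. Its levels in the brachial and the internal mammary artery were 11.92 and 12.19 for GPX3 (others up to 8.81 and 9.04), 9.75 and 9.85 for FOSL2, 7.63 and 7.11 for HTR1B, 10.16 and 10.68 for EPAS1, and 13.81 and 13.74 for HSPB1. In its brachial artery PTGS2 read 10.00 (9.998, others up to 7.29) and IER3 11.06. In its internal mammary artery HOXD12 read 4.38, and CAT (11.17) and TFPI2 (10.01) were low. Its CAT difference was 0.10.

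Pig 15_1 had a HOXA9 level of 6.94 in its internal mammary artery, where the others lay between 9.59 and 11.23, and a HOXA9 difference of 1.41. Its POSTN difference was 2.99, its internal mammary MMP1 level 2.90 and its internal mammary CALCRL level 7.02. Pig 11_1 was low in its internal mammary artery for CD74 (12.21), CLEC3B (12.63) and CDH5 (11.89), and its SOD3 difference was 0.71. It also stood apart in the second GAPDH set, at 0.67 on the brachial array and 0.40 for the difference, and in the difference of array medians (-0.145).

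Pig 10_2 had the brachial TLK1 level of 8.29, internal mammary levels of 5.83 for GATA3 and 4.70 for DLX5, a TBX2 difference of 0.60 and a 28S/18S ratio of 1.79. Pig 17_1 had a GATA3 level of 5.64 in the brachial artery and differences of -0.080 for LHX9 and 0.31 for EGR1. The F8 difference was -1.95 in pig 13_2 and the PER1 difference -0.099 in pig 11_4.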

How the results depend on the processing

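Pairing rests on the labels, and without it (no replicate block) 5286 probe sets passed, 4882 of them shared with the paired fit, and 84 of 107 named genes kept their call. Those that lost it and are not said above to depend on the pairing or on single pigs were SERPINE2, HSPB1, NFIL3 and CD79B. HSPB1, NFIL3 and CD79B, with IER3, FOSL2, HTR1B and GPX3, also lost it with pig as a random block over 14 arrays. As a random block, pig gave 7154 with 14 arrays and 8340 with all 29. Centring each array again gave 6440, of which 66.8% were higher in the brachial artery against 55.4%. That share was 45.2% without the dimmest 33.3% of probe sets (2117 higher in the brachial artery) and 45.1% after cyclic loess, so the split between directions depends on scaling. Quantile normalization gave 5433.

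Covariates moved the counts most. The actin difference left 850 (524 higher in the brachial, 326 in the internal mammary artery, 221 shared with the paired fit), the 28S/18S ratio 3641 (2089 and 1552), and the hybridisation controls 0 (0 and 0 in limma, 2039 at an unadjusted p under 0.05). Of 107 named genes 20 kept their call with the actin difference, 71 lost it and 16 changed sign. With the hybridisation controls 0 kept it, 97 lost it and 10 changed sign, and with the 28S/18S ratio 64 kept it. Leaving out 1 pig gave 4501 (12_3) to 6503 (11_1) passing probe sets. Without pigs 11_1, 13_2 and 15_1, a choice made after seeing the data, 4188 passed and 1842 were higher in the brachial artery.

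No sign change passed the threshold. With the actin covariate the changed signs were CILP -0.83, RERG 0.22, HOXA3 0.17, HOXA9 0.092, HOXD10 -0.36, GATA4 -0.012, TIMP3 -0.53, PRDX3 0.26, LEP -0.18, ID2 -0.23, INHBB -0.16, FGF9 -0.011, RBPJ 0.0061, CD74 -0.090, PER1 -0.11, HBB 0.012, S100B -0.087, IRF1 -1.10, CDH5 -1.37 and EDN1 -1.03. With the hybridisation control covariate they were HOXA3 0.46, HOXA9 0.022, HOXD10 -0.028, FOSL1 -0.027, TIMP3 -0.18, MMP1 -0.15, AGT -5e-04, GPX7 -0.11, PRDX3 0.011, RBPJ 0.25, HBB 0.084, IRF1 -0.26, CDH5 -0.68 and EDN1 -0.46. The cause was not tested.

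Values near 0 changed sign elsewhere. NOS3 gave 0.033 after centring, 0.20 with the 28S/18S ratio, 0.058 with smooth muscle, 0.0034 after cyclic loess and -0.11 to 0.044 with 1 pig left out. PECAM1 gave 0.049 with the 28S/18S ratio and 0.0077 with smooth muscle. CDH5 gave -0.040 with pig weights, -0.17 without 11_1 and 15_1, -0.14 without 13_2 too, and -0.12 to 0.085 with 1 pig left out. HOXD10 gave -0.0033, -0.062, -0.079 and -0.021 to 0.058 in the same order. MMP7 gave 0.22 without 11_1, 13_2 and 15_1. With 1 pig left out the endothelial mean ran from -0.15 to 0.025, the erythroid from -0.29 to 0.026 and the nerve mean from -0.015 to 0.036.

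Controls that 6 of 7 pigs shared lost their call with 6 of the 7 pigs left out in turn, where 6 pairs limit the exact test: GAPDH (-0.37 to -0.23), the second actin set (0.47 to 0.64), 18S (0.60 to 1.02), 5S (-0.95 to -0.68), 28S/18S (0.12 to 0.22) and poly(A) spikes (0.062 to 0.098).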
